A study of Mus musculus with 12 samples.

Results

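RNA of 9 markers of tubular injury and failed repair was followed in cultured proximal tubule (PT) cells with and without the TGF-β type II receptor, TβRII. The markers were Havcr1, Lcn2, Clu, Spp1, Vcam1, Icam1, Sox9, Cd24a and Prom1. They were listed by name, as genes in common use to mark injured, incompletely repaired or progenitor-like tubule cells. They are 9 of the 25514 mouse genes to which the transcript counts could be assigned, and all 9 are among the 12971 genes that passed the filter on low counts. Prom1 passed it through the TβRII-/- libraries alone. Each gene is represented by its transcript with the highest total count, and the positions given below are those of the whole gene in GRCm38.p6.

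The cells were conditionally immortalized PT cells from kidneys of male mice with the genotype H2ts6;Tgfbr2fl/fl, in which Tgfbr2, the gene of TβRII, is floxed. Both genotypes carried the Immorto-mouse transgene, a heat-sensitive T antigen under an interferon-inducible promoter. TβRII-/- cells (H2ts6;Tgfbr2-/-) were made from floxed cells with a Cre adenovirus in culture, and the titles mark the TβRII flox/flox cells as Cre-negative. The sources used here name no more than 1 line of each genotype, so that exposure to virus, differences between lines and the loss of the receptor cannot be told apart. Both grew at 33 °C with 2.5% serum and interferon gamma, and were kept at 37 °C for the last 5 days before the experiment. By the study's methods, interferon gamma was taken away when the cells went to 37 °C. Of each genotype, 3 libraries came from untreated cells in complete medium and 3 from cells kept for 24 h with H2O2 in serum-free medium. The study's methods also give 24 h without serum before H2O2. H2O2 and the loss of serum therefore cannot be told apart, and H2O2 below stands for both. The dose is 200 mM in the sample labels and 200 μM in the study's methods. The title of replicate 3 of the untreated TβRII flox/flox cells has another abbreviation than the other 2, with the same genotype and medium in its labels. Nothing in the labels says that replicates were separate cultures, so p-values measure the spread between libraries, which may be technical.

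An injured proximal tubule cell loses its transporters and brush border, takes on a flat shape, divides and then differentiates again. Havcr1 (KIM-1) and Lcn2 (NGAL) are the best known markers of the acute phase, and their proteins are measured in urine. Cells that do not complete the repair keep Vcam1 and inflammatory genes switched on, and Sox9, Cd24a and Prom1 mark cells that proliferate or resemble progenitors. TGF-β signals through TβRII and is a main driver of fibrosis in the kidney.

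Assigned counts ranged from 15870155 to 20857618 per library, and counts below are normalized to a library of 17351835 counts. The first principal component of the 12 libraries held 81.5% of the variance and the second 9.16%. Tgfbr2 was counted in every library, with 9248, 8369 and 7562 normalized counts in untreated TβRII flox/flox cells and 6782, 6675 and 6358 in untreated TβRII-/- cells. A count over the whole transcript does not show whether a floxed part is missing, and thus does not check the genotype.

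Of 14 PT marker genes, 8 passed the filter, and Slc34a1, Slc22a6, Slc22a8 and Hnf4a had at most 3 counts in every library, so that the defining transporters of the mature segment were absent or nearly so. The summed PT markers ranged from 25465 to 31470 normalized counts in untreated TβRII flox/flox cells and from 33578 to 36425 with H2O2. They ranged from 17736 to 18865 in untreated TβRII-/- cells and from 18879 to 20163 with H2O2. The 6 general epithelial markers were all tested, and their sum was between 17564 and 21430 in TβRII flox/flox and between 37232 and 40332 in TβRII-/- cells, treated or not. None of 7 distal nephron markers passed the filter, and their sum was at most 15.9.

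Defining markers of other cell types, namely Nphs1 of podocytes, Pecam1 and Emcn of endothelium, Lum and Col3a1 of fibroblasts, and Adgre1 and Cd3e of leukocytes, had at most 3 counts in every library. The lists also hold less specific genes, whose levels differed between groups. Podxl, a sialomucin of podocytes and other cells, had between 31.2 and 55.0 normalized counts in TβRII flox/flox and between 417 and 535 in TβRII-/- cells. The 5 endothelial markers, of which Kdr alone was tested, summed to between 127 and 138 in untreated and 22.7 and 26.4 in treated TβRII flox/flox cells, and to between 465 and 586 and between 39.3 and 65.6 in TβRII-/- cells. The 6 fibroblast markers, 3 of them tested, summed to between 53.8 and 96.3 in TβRII flox/flox and between 16.5 and 50.7 in TβRII-/- cells. The 8 leukocyte markers, 2 of them tested, lay between 906 and 1096 and between 953 and 1176. The part of these genes in the results below was not tested.

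Below, fold changes come from the fit with their standard error (SE), and all cells are PT cells. In untreated cells, Lcn2, Clu, Icam1, Spp1, Cd24a and Prom1 were higher in TβRII-/- than in TβRII flox/flox cells, Vcam1 and Sox9 were lower, and Havcr1 did not pass the test. Of the 9 markers, 6 were thus called higher and 2 lower by the quasi-likelihood test of edgeR at a Benjamini-Hochberg adjusted p under 0.05 over all 12971 genes. Of all genes tested, 33.3% were called higher and 31.4% lower. With a fold of at least 1.5 asked as well, 6 of 9 markers were called, against 28% of all genes. Prom1 is in these counts although it passed the filter only where it was high, and of the other 8 markers 5 were called higher and 2 lower, 5 of them at 1.5-fold or more. The median log2 fold change was 0.49 over the 9 markers and 0.01 over all genes tested, and the first of these is the same with Prom1 set to the lower bound given below. The median of the 8 without Prom1 was 0.40. In bulk RNA, fewer cells with a marker and less of its RNA per cell cannot be told apart.

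With H2O2, 6 markers were higher and 1, Vcam1, lower in TβRII-/- cells, while Havcr1 and Sox9 did not pass the test. Of all genes, 35.1% were called higher and 31.3% lower in this comparison, and 5 of 9 markers but 30.7% of all genes also reached 1.5-fold. Of the 8 markers other than Prom1, 5 were higher and 1 lower, and 4 reached 1.5-fold. The median over the 9 markers was 0.41, that over the 8 other than Prom1 0.36 and that over all genes 0.02. The 2 comparisons of genotypes have no library in common.

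**Figure D1:**
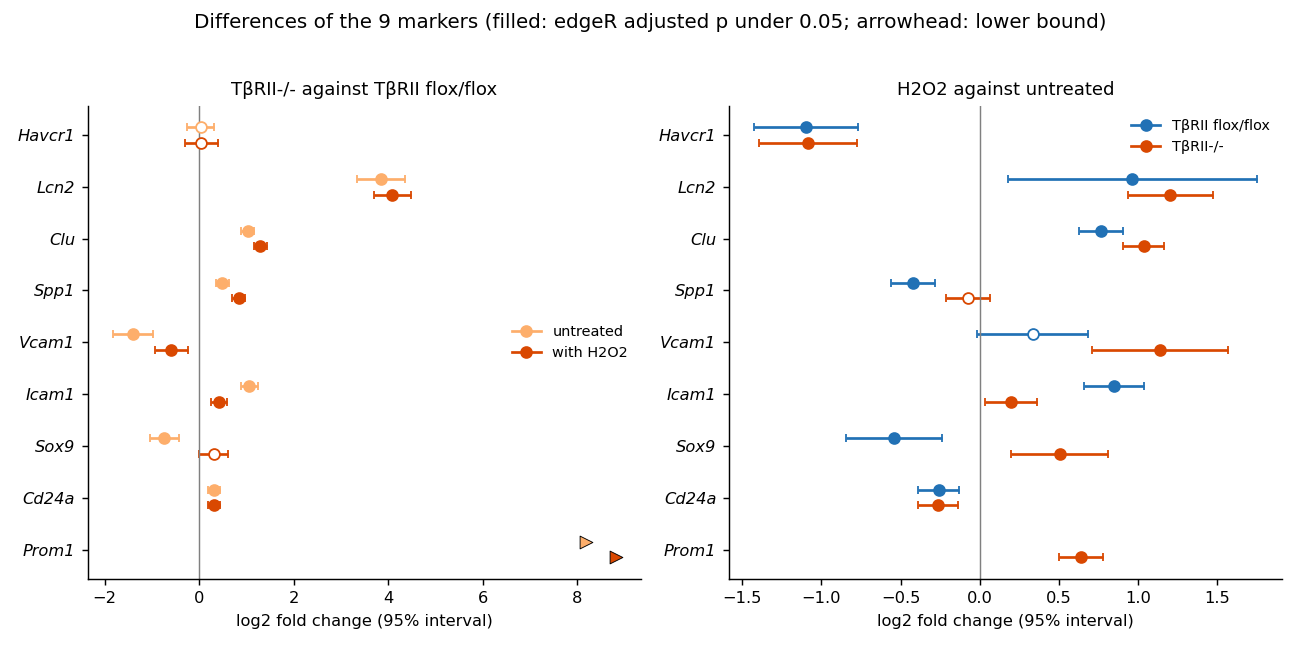
Log2 fold changes of the 9 markers with their 95% intervals, between genotypes (left, untreated and with H2O2) and between H2O2-treated and untreated cells (right, in each genotype); filled points have an edgeR adjusted p under 0.05, and arrowheads give the lower bounds of Prom1. Lcn2 lies near 4 between genotypes under both conditions, Havcr1 near 0 between genotypes and near −1 after H2O2, and Sox9 on opposite sides of 0 after H2O2.

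After H2O2, TβRII flox/flox cells had more Lcn2, Clu and Icam1 and less Havcr1, Spp1, Sox9 and Cd24a than untreated ones, which makes 3 markers called higher and 4 lower. Of all genes tested, 21% were called higher and 20.5% lower. TβRII-/- cells had more Lcn2, Clu, Vcam1, Icam1, Sox9 and Prom1 after H2O2 and less Havcr1 and Cd24a, which makes 6 called higher and 2 lower, where 20.5% of all genes were called higher and 19.1% lower. At 1.5-fold or more the counts were 4 of 9 markers in TβRII flox/flox cells, against 8.24% of all genes, and 5 of 9 in TβRII-/- cells, against 8.33%. The median over the 8 markers other than Prom1 was 0.04 in TβRII flox/flox and 0.35 in TβRII-/- cells, where all genes had medians of 0.01 and 0.02. The interaction, which is the H2O2 effect in TβRII-/- minus that in TβRII flox/flox cells on the log2 scale, was called above 0 for Sox9 and Spp1 and below 0 for Icam1. Of all genes, 3.9% had an interaction called above 0 and 6.28% below 0.

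**Figure D2:**
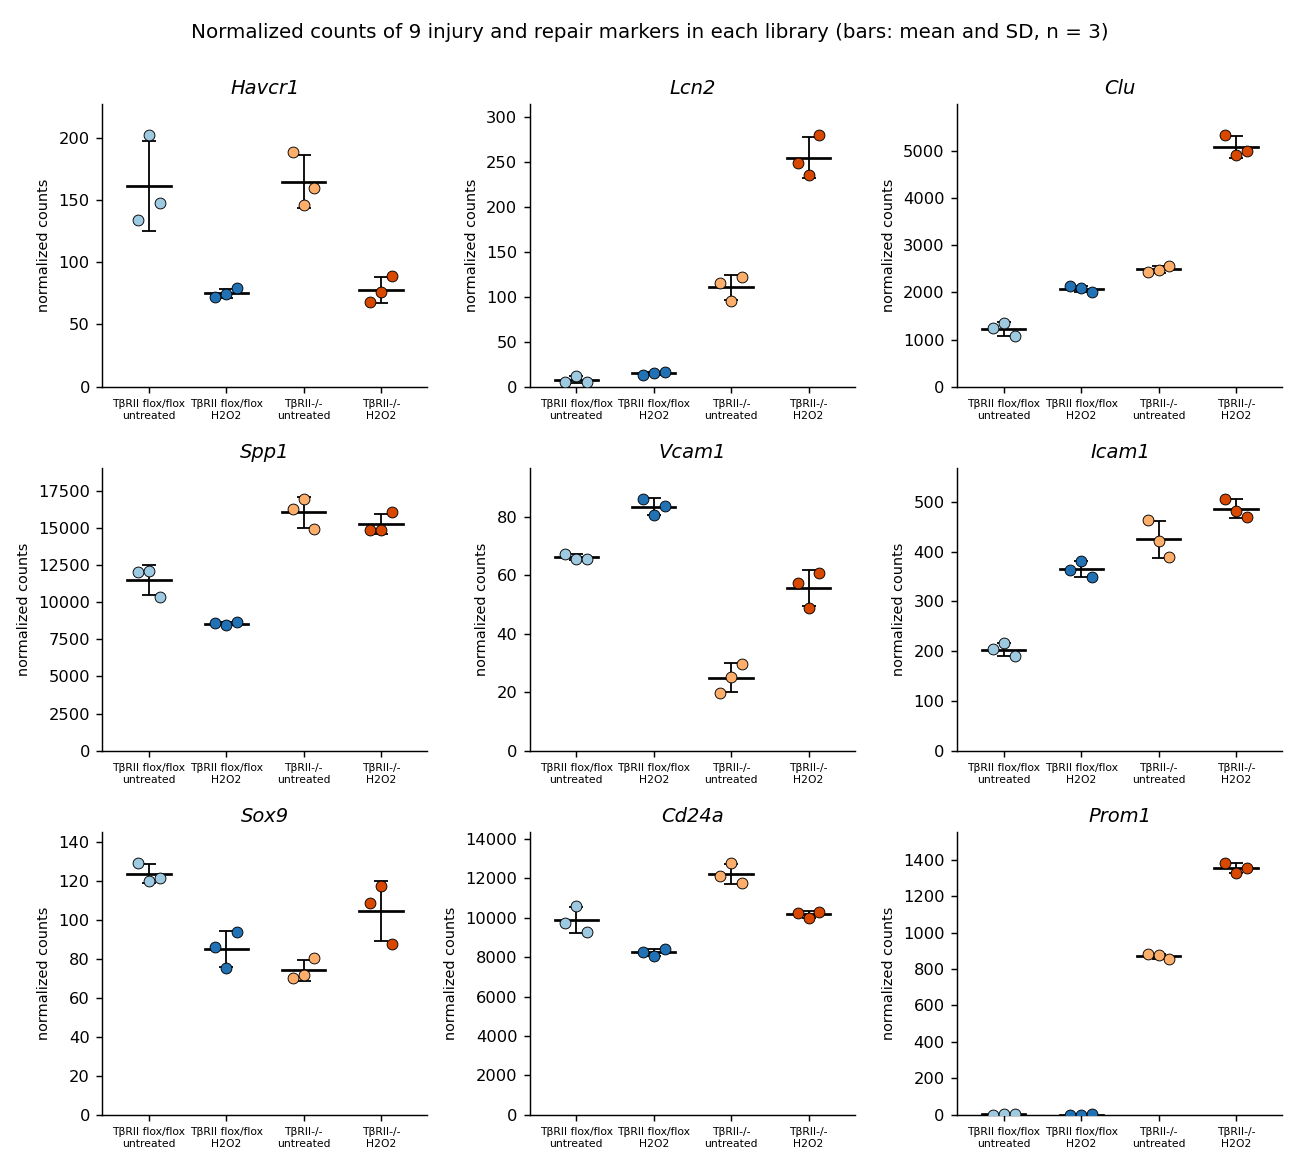
Normalized counts of each marker in the 12 libraries, with 3 points per group and a bar for the mean with its SD; every axis starts at 0. Prom1 had 0 to 2 counts in each TβRII flox/flox library and at least 842 in each TβRII-/- library, and the untreated and H2O2 groups of Havcr1 do not overlap in either genotype.

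Havcr1 (ENSMUST00000109223, chromosome 11, 46739822 to 46779578 of GRCm38.p6) encodes a membrane receptor that binds phosphatidylserine and lets tubule cells take up dead neighbours. Its normalized counts were 134, 202 and 147 in the untreated TβRII flox/flox libraries and 188, 146 and 159.9 in the untreated TβRII-/- libraries. With H2O2 they were 72.0, 74.4 and 79.1 in TβRII flox/flox and 68.3, 76.3 and 88.5 in TβRII-/- cells. All 6 treated libraries lay below all 6 untreated ones, and the genotypes overlapped under both conditions. Havcr1 fell 2.14-fold with H2O2 in TβRII flox/flox cells (log2 fold change −1.10, SE 0.16, edgeR adjusted p = 1.83e-06) and 2.12-fold in TβRII-/- cells (log2 fold change −1.08, SE 0.15, edgeR adjusted p = 1.02e-06). Between untreated genotypes the log2 difference was 0.03, with a 95% interval of −0.25 to 0.32 (edgeR adjusted p = 0.853). With H2O2 it was 0.05, with an interval of −0.31 to 0.40 (edgeR adjusted p = 0.831). The 2 H2O2 effects differed by 0.01, with an interval of −0.44 to 0.47 (edgeR adjusted p = 0.988). All 4 Havcr1 transcripts with at least 100 counts in total were lower with H2O2 in both genotypes. A read can count for several transcripts of a gene, so this agreement is not separate evidence.

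Lcn2 (ENSMUST00000147219, chromosome 2, 32384637 to 32387739) encodes lipocalin-2, a secreted protein that binds bacterial siderophores and withholds iron. It had 5.26, 12.2 and 5.38 normalized counts in untreated TβRII flox/flox cells and 13.2, 15.5 and 16.04 with H2O2. In TβRII-/- cells it had 115, 94.9 and 122 untreated and 249, 235 and 280.4 with H2O2. No 2 of the 4 groups overlapped, and every TβRII-/- library was above every TβRII flox/flox one. Lcn2 was 14.4-fold higher in untreated TβRII-/- cells (log2 fold change 3.85, SE 0.25, edgeR adjusted p = 8.13e-15) and 17.0-fold higher with H2O2 (log2 fold change 4.09, SE 0.19, edgeR adjusted p = 1.22e-18). H2O2 raised it 2.30-fold in TβRII-/- cells (log2 fold change 1.20, SE 0.13, edgeR adjusted p = 1.09e-08). In TβRII flox/flox cells the rise was 1.95-fold (log2 fold change 0.96, SE 0.39, edgeR adjusted p = 0.0448), from 5 to 11 counts per untreated library and 13 to 15 per treated one. That call was lost without untreated replicate 1 (edgeR adjusted p = 0.147) or 3 (0.162), without H2O2 replicate 2 (0.1) or 3 (0.0967), and in a fit of these 6 libraries alone (0.0776). The interaction was 0.24, with an interval of −0.67 to 1.15 (edgeR adjusted p = 0.804). The transcript that stands for Lcn2 has no defined coding sequence in the annotation, and its total of 1249 counts was 3 above that of a coding transcript. All 6 Lcn2 transcripts with at least 100 counts were higher in TβRII-/- cells under both conditions, but they share reads and are not separate evidence.

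Clu (ENSMUST00000022616, chromosome 14, 65968483 to 65981548) encodes clusterin, a secreted chaperone that binds misfolded proteins and cell debris. Untreated TβRII flox/flox cells had 1253, 1349.8 and 1069 normalized counts and treated ones 2141, 2092 and 2007. Untreated TβRII-/- cells had 2426, 2483 and 2558 and treated ones 5355, 4922 and 5014. The 4 groups stood in that order without overlap, and TβRII flox/flox cells with H2O2 stayed below untreated TβRII-/- cells. Clu was 2.03-fold higher in untreated TβRII-/- cells (log2 fold change 1.02, SE 0.07, edgeR adjusted p = 1.19e-14) and 2.45-fold higher with H2O2 (log2 fold change 1.29, SE 0.07, edgeR adjusted p = 8.93e-18). H2O2 raised it 1.70-fold in TβRII flox/flox (log2 fold change 0.77, SE 0.07, edgeR adjusted p = 1.42e-10) and 2.05-fold in TβRII-/- cells (log2 fold change 1.03, SE 0.06, edgeR adjusted p = 3.37e-14). The interaction was 0.27, with an interval of 0.08 to 0.46, and did not pass (edgeR adjusted p = 0.0637). It passed without untreated TβRII flox/flox replicate 3 (edgeR adjusted p = 0.00766) and without a filter on low counts (0.0368). All 9 Clu transcripts with at least 100 counts moved in the same direction in each of the 4 comparisons, but they share reads and are not separate evidence.

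Spp1 (ENSMUST00000112748, chromosome 5, 104435111 to 104441053) encodes osteopontin, a secreted phosphoprotein that binds integrins and CD44 and attracts macrophages. Its normalized counts were 12018, 12105 and 10325 in untreated TβRII flox/flox cells and 8618, 8442 and 8650.2 with H2O2. In TβRII-/- cells they were 16304, 16990.1 and 14948 untreated and 14886, 14852 and 16066 with H2O2. The genotypes did not overlap under either condition, and within TβRII-/- cells the treated and untreated libraries did. Spp1 was 1.40-fold higher in untreated TβRII-/- cells (log2 fold change 0.49, SE 0.07, edgeR adjusted p = 2.27e-07) and 1.78-fold higher with H2O2 (log2 fold change 0.83, SE 0.07, edgeR adjusted p = 2.24e-12). H2O2 lowered it 1.34-fold in TβRII flox/flox cells (log2 fold change −0.42, SE 0.07, edgeR adjusted p = 9.91e-06). In TβRII-/- cells the log2 fold change was −0.07, with an interval of −0.21 to 0.06 (edgeR adjusted p = 0.403). The interaction was 0.35 (SE 0.10, edgeR adjusted p = 0.0181). It did not pass without TβRII flox/flox untreated replicate 2 (edgeR adjusted p = 0.0764), its H2O2 replicate 2 (0.0619) or 3 (0.0597), TβRII-/- untreated replicate 3 (0.0594) or its H2O2 replicate 3 (0.0564).

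Vcam1 (ENSMUST00000029574, chromosome 3, 116110020 to 116129688) encodes an adhesion molecule that leukocytes bind through the integrin α4β1, and it labels proximal tubule cells that have failed to recover. It had 67.3, 65.7 and 65.6 normalized counts in untreated TβRII flox/flox cells and 19.9, 25.2 and 29.7 in untreated TβRII-/- cells. With H2O2 it had 86.2, 80.6 and 83.7 in TβRII flox/flox and 57.2, 48.8 and 60.7 in TβRII-/- cells. The 4 groups did not overlap, and TβRII-/- cells were the lower genotype under both conditions. Vcam1 was 2.64-fold lower in untreated TβRII-/- cells (log2 fold change −1.40, SE 0.21, edgeR adjusted p = 6.50e-07) and 1.51-fold lower with H2O2 (log2 fold change −0.60, SE 0.17, edgeR adjusted p = 0.00292). H2O2 raised it 2.20-fold in TβRII-/- cells (log2 fold change 1.14, SE 0.21, edgeR adjusted p = 5.96e-05), which brought it to 55.5 ± 6.13 normalized counts (SD, n = 3). In TβRII flox/flox cells the log2 fold change was 0.33, with an interval of −0.02 to 0.68 (edgeR adjusted p = 0.119). The interaction of 0.80, with an interval of 0.25 to 1.36, did not pass (edgeR adjusted p = 0.0556). It passed without untreated TβRII-/- replicate 3 (edgeR adjusted p = 0.0423) and with genes of at least 10 counts in every library only (0.0445).

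Icam1 (ENSMUST00000086399, chromosome 9, 21015940 to 21028814) encodes the ligand of the leukocyte β2 integrins and is a standard target of NF-κB and interferon signalling. Clu, Icam1, Lcn2 and Prom1 had more RNA in TβRII-/- cells and more again with H2O2 in those cells. The Icam1 rise there was lost in 9 of 13 alternatives, and no promoter sequence was at hand for Clu. The sequences of Icam1, Lcn2 and Prom1 are shown from 250 bases before to 50 bases after a RefSeq transcript start (300 bases, GRCm38.p6). They are written 5′ to 3′ on the strand of the gene. Capitals mark matches, on either strand, to the letters TGANTCA (AP-1), GGNNNTTCC (κB) and TATAAA.
Icam1 (GRCm38.p6, chr9:21015690-21015989, plus strand): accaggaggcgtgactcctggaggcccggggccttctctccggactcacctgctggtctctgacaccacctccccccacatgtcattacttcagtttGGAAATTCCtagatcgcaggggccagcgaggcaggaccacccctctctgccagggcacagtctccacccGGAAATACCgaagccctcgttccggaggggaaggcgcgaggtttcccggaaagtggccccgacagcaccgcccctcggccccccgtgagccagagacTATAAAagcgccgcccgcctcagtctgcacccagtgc
Lcn2 (GRCm38.p6, chr2:32387690-32387989, minus strand): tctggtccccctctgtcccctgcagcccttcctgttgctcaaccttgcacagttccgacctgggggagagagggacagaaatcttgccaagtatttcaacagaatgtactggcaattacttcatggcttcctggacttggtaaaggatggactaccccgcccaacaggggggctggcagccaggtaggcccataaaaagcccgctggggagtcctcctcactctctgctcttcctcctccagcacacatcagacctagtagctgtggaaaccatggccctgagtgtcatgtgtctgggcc
Prom1 (GRCm38.p6, chr5:44101687-44101986, minus strand): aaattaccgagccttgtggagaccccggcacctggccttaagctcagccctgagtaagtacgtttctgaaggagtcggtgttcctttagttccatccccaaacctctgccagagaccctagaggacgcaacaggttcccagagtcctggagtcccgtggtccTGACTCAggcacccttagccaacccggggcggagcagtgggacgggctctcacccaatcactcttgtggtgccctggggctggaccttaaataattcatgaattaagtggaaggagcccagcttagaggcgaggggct
The Icam1 window held the κB letters beginning 153 and 84 bases upstream of the start and TATAAA from base 14 after the start, with no overlap between matches. The first of 2 Prom1 windows, the one shown, held the AP-1 letters 88 bases upstream, and the second held them 189 bases upstream. The letters also occurred in 1 of 3 windows of Havcr1, which was lower with H2O2, and TATAAA in 1 of 2 windows of Spp1, while in the Lcn2 window none of these was found. Of 32851 mouse promoter windows of the same length, 18.5% held the κB letters, 7.81% the AP-1 letters and 13.6% TATAAA. These are matches of letters only, and binding was not measured. RefSeq windows were at hand for 5 of the 9 markers, the others being Spp1 and Havcr1, and no window was at hand for Clu, Vcam1, Sox9 and Cd24a.

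Icam1 had 204, 216 and 189 normalized counts in untreated TβRII flox/flox cells and 364, 382 and 349.5 with H2O2. The TβRII-/- cells had 464, 421 and 389 untreated and 507, 483 and 469 with H2O2. The groups stood in that order without overlap, and the step from untreated to treated was larger in TβRII flox/flox cells. Icam1 was 2.09-fold higher in untreated TβRII-/- cells (log2 fold change 1.06, SE 0.09, edgeR adjusted p = 6.15e-12) and 1.33-fold higher with H2O2 (log2 fold change 0.41, SE 0.08, edgeR adjusted p = 5.18e-05). H2O2 raised it 1.80-fold in TβRII flox/flox cells (log2 fold change 0.85, SE 0.09, edgeR adjusted p = 1.03e-08) and 1.15-fold in TβRII-/- cells (log2 fold change 0.20, SE 0.08, edgeR adjusted p = 0.0489). The H2O2 effect was smaller in TβRII-/- cells by 0.65 on the log2 scale, as an interaction of −0.65 (SE 0.12, edgeR adjusted p = 0.000605). The rise in TβRII-/- cells was lost in 9 of 13 alternatives, with edgeR or DESeq2 adjusted p-values up to 0.242. Among them were the fits without untreated replicate 2 (edgeR adjusted p = 0.112) or 3 (0.242) and without H2O2 replicate 1 (0.165), 2 (0.0905) or 3 (0.0598).

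Sox9 (ENSMUST00000000579, chromosome 11, 112782210 to 112787757) encodes a transcription factor that is switched on in tubule cells that divide to repair the epithelium. Its normalized counts in TβRII flox/flox cells were 129, 120.2 and 122 untreated and 86.2, 75.4 and 94.0 with H2O2. In TβRII-/- cells they were 70.1, 71.6 and 80.4 untreated and 109, 117 and 87.5 with H2O2. Untreated TβRII flox/flox cells were the highest group, apart from the rest, whereas treated TβRII flox/flox cells overlapped both TβRII-/- groups. Sox9 was 1.67-fold lower in untreated TβRII-/- cells (log2 fold change −0.74, SE 0.15, edgeR adjusted p = 7.59e-05). With H2O2 the log2 difference between genotypes was 0.31, with an interval of 0.00 to 0.61, and did not pass (edgeR adjusted p = 0.0697). It passed without TβRII-/- H2O2 replicate 3 (edgeR adjusted p = 0.0215). H2O2 lowered Sox9 1.46-fold in TβRII flox/flox cells (log2 fold change −0.54, SE 0.15, edgeR adjusted p = 0.00403) and raised it 1.42-fold in TβRII-/- cells (log2 fold change 0.50, SE 0.15, edgeR adjusted p = 0.00799). The interaction was 1.04 (SE 0.21, edgeR adjusted p = 0.00131), and all 18 alternatives kept its call, with adjusted p-values up to 0.0272. The rise in TβRII-/- cells alone was lost without H2O2 replicate 2 (edgeR adjusted p = 0.0632) and with counts summed over transcripts (0.0548).

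Cd24a (ENSMUST00000058714, chromosome 10, 43579169 to 43584265) encodes a small surface glycoprotein, and with Prom1 it defines scattered progenitor-like tubule cells. It had 9761, 10587 and 9292 normalized counts in untreated TβRII flox/flox cells and 8271, 8047 and 8424 with H2O2. In TβRII-/- cells it had 12116, 12805 and 11772 untreated and 10255, 9979 and 10287 with H2O2. Treated TβRII-/- cells overlapped untreated TβRII flox/flox ones, and the other neighbouring groups did not overlap. The differences were small. Cd24a was 1.24-fold higher in untreated TβRII-/- cells (log2 fold change 0.31, SE 0.06, edgeR adjusted p = 6.72e-05) and 1.23-fold higher with H2O2 (log2 fold change 0.30, SE 0.06, edgeR adjusted p = 8.12e-05). H2O2 lowered it 1.20-fold in TβRII flox/flox (log2 fold change −0.26, SE 0.06, edgeR adjusted p = 0.00114) and 1.20-fold in TβRII-/- cells (log2 fold change −0.27, SE 0.06, edgeR adjusted p = 0.000986). The 2 effects of H2O2 differed by −0.01, with an interval of −0.18 to 0.17 (edgeR adjusted p = 0.988).

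Prom1 (ENSMUST00000074113, chromosome 5, 43993621 to 44102047) encodes prominin-1 (CD133), a protein of membrane protrusions. In TβRII flox/flox cells it had 0, 2 and 1 counts in the untreated libraries and 0, 0 and 1 in the treated ones, at or under the 3 counts that a count of 0 allows. The TβRII-/- cells had 880.5, 878 and 856 normalized counts untreated and 1385, 1330.3 and 1354 with H2O2. Prom1 was thus at or near 0 in one genotype and, in the other, above 60.4% of all genes tested when untreated and above 72.9% with H2O2, by counts per length. It was at least 290.5-fold higher in untreated TβRII-/- cells and at least 452.2-fold higher with H2O2, both against a floor of 3 normalized counts per library. Since Prom1 passed the filter only through TβRII-/- libraries, its calls between genotypes are given as a description. H2O2 raised it 1.56-fold in TβRII-/- cells (log2 fold change 0.64, SE 0.07, edgeR adjusted p = 5.38e-09). All 18 of its transcripts with at least 100 counts were higher, but they share reads and are not separate evidence. With counts this low in TβRII flox/flox cells, neither an H2O2 effect nor an interaction was measurable.

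Compared per length, as normalized counts per kb of transcript, Spp1, Cd24a and Clu were the 3 highest markers in every group. In untreated TβRII flox/flox cells Spp1 had 7870.3 ± 688, Cd24a 5434 ± 361 and Clu 674 ± 78.5 per kb (SD, n = 3). Havcr1 followed with 81.2 ± 18.4, Icam1 with 64.6 ± 4.24, Sox9 with 29.6 ± 1.19, Vcam1 with 19.0 ± 0.282 and Lcn2 with 5.55 ± 2.91 per kb. Spp1 was above 99.55% of all genes tested in that group, and Havcr1 above 35.5%. In TβRII-/- cells with H2O2 the markers after Clu were Prom1 with 342 ± 6.86, Lcn2 with 186 ± 16.9 and Icam1 with 155 ± 6.03 per kb, and Havcr1, Sox9 and Vcam1 were the lowest at 39.2 ± 5.13, 25.0 ± 3.66 and 15.97 ± 1.76 per kb. Lcn2 thus went from the 8th of the 9 markers in untreated TβRII flox/flox cells to the 5th in treated TβRII-/- cells.

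**Figure D3:**
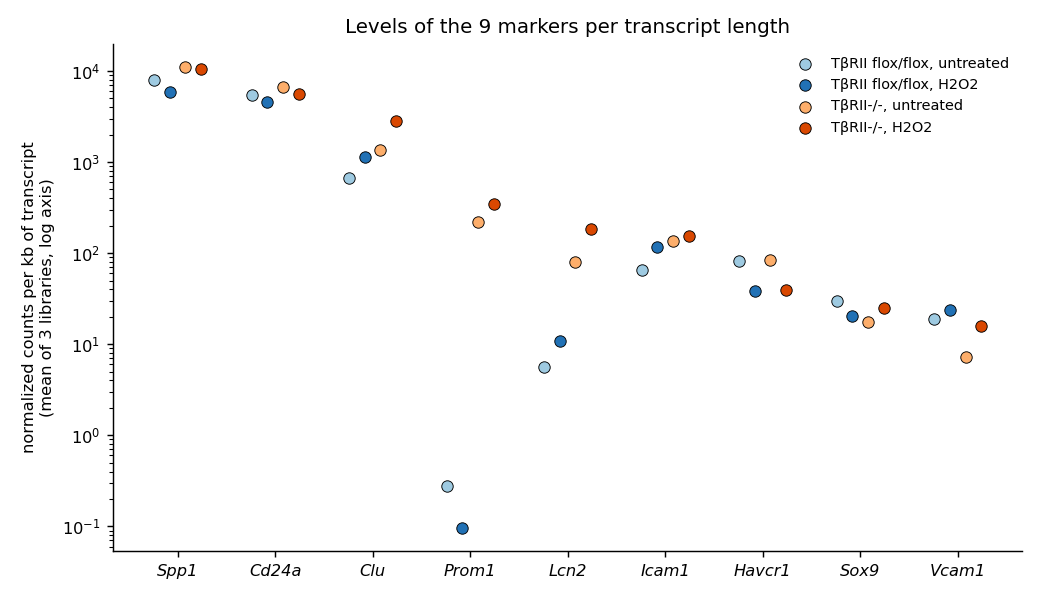
Mean normalized counts per kb of transcript for the 9 markers (3 libraries per group, log axis). The markers span from about 11022 per kb for Spp1 in untreated TβRII-/- cells to under 1 per kb for Prom1 in TβRII flox/flox cells, where each library had at most 2 counts.

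The chromosomes did not share 1 median between genotypes. Over all genes tested, the log2 fold change of untreated TβRII-/- against TβRII flox/flox cells had a median of 0.01, but chromosome 2, which holds Lcn2, had 0.297 over 961 genes and chromosome 5, which holds Spp1 and Prom1, had 0.295 over 772 genes. With H2O2 these medians were 0.305 and 0.291. Chromosomes 11, 14, 3, 9 and 10, which hold the other 6 markers, had medians of −0.04, 0.04, −0.13, −0.07 and −0.05 in untreated cells. The 12 tested genes on each side of Spp1 had a median of 0.76 untreated and 0.71 with H2O2, next to 0.49 and 0.83 for Spp1 itself. The 24 neighbours of Prom1 had a median of 0.465 untreated and 0.451 with H2O2, and those of Lcn2 0.168 and 0.189. The neighbours of Havcr1 had medians of −0.323 and −0.254 and those of Vcam1, itself lower in TβRII-/- cells, −0.26 and −0.246, while those of the other 4 markers lay between −0.151 and 0.09. The chromosome with the largest median in size was 15, with 0.356 in untreated cells, and it holds none of the markers. The part of these shifts in the markers was not tested.

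A wider set of 63 genes of tubular injury, of which 58 were tested, was sorted into failed repair and inflammatory epithelium, acute injury, and scattered tubular or progenitor-like cells. Between untreated genotypes 26 of the 58 were higher in TβRII-/- cells and 23 lower, where 33.3% and 31.4% of all genes were. With H2O2 28 were higher and 22 lower, where 35.1% and 31.3% of all genes were. After H2O2, 14 were higher and 25 lower in TβRII flox/flox cells, and 14 were higher and 29 lower in TβRII-/- cells. The shares of all genes were 21% and 20.5% in the first and 20.5% and 19.1% in the second. Their median log2 fold changes were 0.10, 0.13, −0.18 and −0.20 in these 4 comparisons, where all genes had medians of 0.01, 0.02, 0.01 and 0.02. The wider set thus had genes called in both directions in each comparison. Its counts between genotypes include Cxcl2 and Wnt4, which passed the filter only through the TβRII-/- libraries.

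Of 22 tested genes of failed repair and inflammation, 5 were higher and 14 lower in untreated TβRII-/- cells, where 33.3% of all genes were higher and 31.4% lower. Their median was −0.51. Among those with at least 10 counts on average, the largest differences were in Sema5a, a semaphorin (log2 fold change −2.21, edgeR adjusted p = 5.23e-22), and Cdh6, a cadherin of the early tubule (−2.17, 4.49e-23), both lower. The complement gene C3 was higher (1.53, edgeR adjusted p = 1.09e-11) and the monocyte chemokine Ccl2 lower (−1.43, 7.78e-15). Cxcl2, the highest point of this list in the plot of the wider lists, had 2 counts in all in untreated TβRII flox/flox cells. It was at least 3.16-fold higher in untreated TβRII-/- cells against 3 normalized counts per library, and the median is the same with this bound. Cxcl2 is in the counts of this list, although it passed the filter only through the TβRII-/- libraries. Of 8 genes of the NF-κB pathway in this list, none was higher and 6 were lower, against 31.4% of all genes called lower. Only 2 of the 8, Nfkb1 (log2 fold change −0.93) and Nfkbiz (−1.12), reached 1.5-fold, against 28% of all genes in either direction. Relb was lower by less (−0.53). With H2O2 6 of the 22 were higher and 13 lower in TβRII-/- cells, where the shares of all genes were 35.1% and 31.3%. Cxcl1, a neutrophil chemokine, was higher there (log2 fold change 1.96, edgeR adjusted p = 2.63e-19) and Csf1, a macrophage growth factor, lower (−1.57, 4.68e-19).

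H2O2 raised 8 and lowered 8 of these 22 genes in TβRII flox/flox cells, and raised 8 and lowered 7 in TβRII-/- cells. It raised 21% and lowered 20.5% of all genes in the first and raised 20.5% and lowered 19.1% in the second. Itgb8, an integrin that activates TGF-β, rose in both genotypes (log2 fold changes 1.40 and 0.85, edgeR adjusted p = 1.54e-12 and 1.57e-09), as did Ccl2 (0.96 and 0.89). Cxcl1 fell by 1.11 on the log2 scale in TβRII flox/flox cells (edgeR adjusted p = 4.04e-11), with an interaction of 0.54 (0.00268). Tgfb2, which encodes a TGF-β ligand, fell in both (−1.29 and −0.98, edgeR adjusted p = 3.96e-15 and 5.81e-12).

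Of 26 tested genes of acute injury, 15 were higher and 6 lower in untreated TβRII-/- cells, with a median of 0.27, where 33.3% of all genes were higher and 31.4% lower. The higher ones included the simple-epithelium keratins Krt20 (3.50, edgeR adjusted p = 2.71e-28) and Krt18 (2.38, 1.45e-24), and also Gpnmb (2.30, 4.95e-14) and galectin-3, Lgals3 (1.68, 1.33e-20). After H2O2, 5 of the 26 were higher and 15 lower in TβRII flox/flox cells, and 3 were higher and 16 lower in TβRII-/- cells. Of all genes, 21% were higher and 20.5% lower in the first, and 20.5% and 19.1% in the second. All 6 of its S100 and annexin genes were lower after H2O2 in both genotypes, with log2 fold changes between −1.32 and −0.53 in TβRII flox/flox and between −1.44 and −0.57 in TβRII-/- cells. Krt20 fell by 1.87 on the log2 scale in TβRII flox/flox cells and by 2.10 in TβRII-/- cells (edgeR adjusted p = 9.20e-15 and 2.18e-22), the direction of Havcr1, whereas Gpnmb rose in both (1.29 and 1.13).

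Of 10 genes of scattered tubular or progenitor-like cells, all tested, 6 were higher and 3 lower in untreated TβRII-/- cells, where 33.3% of all genes were higher and 31.4% lower. Krt7 went from 52.2 ± 1.64 to 6884 ± 605 normalized counts (log2 fold change 7.04, edgeR adjusted p = 3.12e-32). Wnt4, a ligand of kidney development, went from 7.27 ± 4.47 to 640.5 ± 33.4. Wnt4 passed the filter only through the TβRII-/- libraries, so its test is not given, although it is in the counts of this list. Krt19 (3.61) and Aldh1a2 (1.81) were higher too, as were Cd24a and Prom1 among the markers. After H2O2, 1 of the 10 rose and 2 fell in TβRII flox/flox cells, and 3 rose and 6 fell in TβRII-/- cells, beside 21% and 20.5% of all genes in the first and 20.5% and 19.1% in the second. Aldh1a1, a retinaldehyde dehydrogenase, had the largest change in both genotypes, from 90.2 ± 16.6 to 19.4 ± 4.74 normalized counts in TβRII flox/flox cells (−2.21, edgeR adjusted p = 1.15e-08) and from 176 ± 28.6 to 39.9 ± 11.1 in TβRII-/- cells (−2.11, 9.55e-11). Krt19 fell by 1.57 on the log2 scale in TβRII-/- cells (edgeR adjusted p = 9.78e-09). Krt7 fell by 1.17 on the log2 scale in TβRII-/- cells (edgeR adjusted p = 1.67e-15), while Prom1 rose there. The interaction was called below 0 for Krt7 (−1.10, edgeR adjusted p = 0.000277) and Cd44 (−0.51, 0.000315). It was called above 0, as for Sox9, for Pax2 (0.64, 1.94e-05) and Sox4 (0.36, 0.00726), both transcription factors of the developing nephron.

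**Figure D4:**
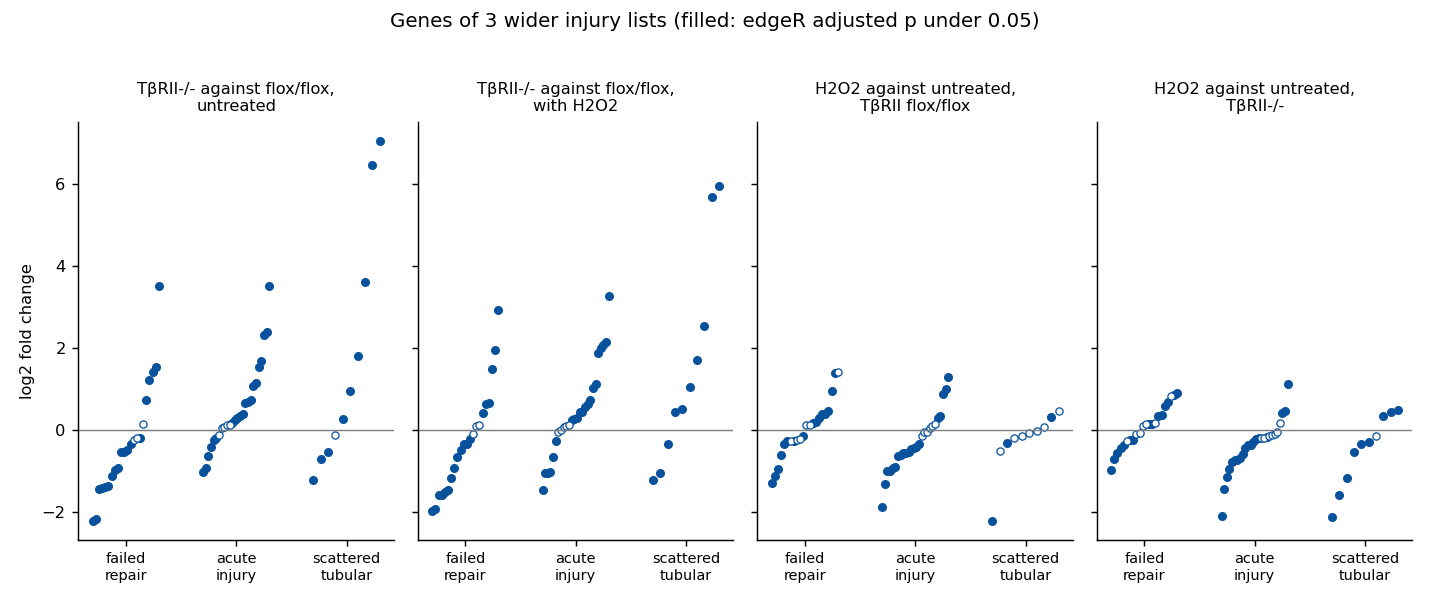
Log2 fold changes of the 58 tested genes of the wider injury set, by list and comparison, sorted within each list; filled points have an edgeR adjusted p under 0.05. Between genotypes the scattered tubular list reaches 7.04 (Krt7, untreated), and after H2O2 the acute injury list has 15 genes called lower in TβRII flox/flox and 16 in TβRII-/- cells.

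Of 15 receptors or binding partners of the markers, 10 were tested, and 5 were higher and 5 lower in untreated TβRII-/- cells, where 33.3% of all genes were higher and 31.4% lower. Itgb2 is among those called higher, although it passed the filter only through the TβRII-/- libraries. The clusterin receptor Vldlr was higher (2.80, edgeR adjusted p = 1.72e-26), and Lrp2 (megalin), which takes up clusterin and lipocalin-2 from the tubule, was lower (−0.65, 1.86e-08). Among the integrin chains that bind osteopontin, Itga9 (2.31, edgeR adjusted p = 2.35e-18) and Itgb3 (1.81, 9.66e-10) were higher. Itgb1 (−1.05, edgeR adjusted p = 1.51e-14) and Cd44 (−0.53, 1.63e-08) were lower. Itga4, the α chain that binds Vcam1, and Itgal and Itgam, which pair with Itgb2 to bind Icam1, did not pass the filter on low counts. After H2O2, Itga9 rose in TβRII flox/flox (1.48, edgeR adjusted p = 1.47e-11) and in TβRII-/- cells (0.89, 2.49e-10), and 6 of the 10 partners rose and none fell in the first, 3 rose and 2 fell in the second. Of all genes, 21% rose and 20.5% fell in the first, and 20.5% rose and 19.1% fell in the second.

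Of 8 relatives of the markers, 3 passed the filter. Prom2, the other prominin, had 0 counts in all 6 TβRII flox/flox libraries and 83.2 ± 15.7 normalized counts in untreated TβRII-/- cells (SD, n = 3). Prom2 was thus at least 27.7-fold higher against 3 normalized counts per library. It passed the filter only through the TβRII-/- libraries, so no test is given. Sox8, of the same group of factors as Sox9, had 329 ± 32.6 in untreated TβRII flox/flox and 5.27 ± 0.453 in untreated TβRII-/- cells, lower in the same genotype as Sox9. With H2O2, Icam5 had 23.2 ± 7.64 normalized counts in TβRII flox/flox and 5.17 ± 3.57 in TβRII-/- cells. Both Sox8 and Icam5 passed the filter only through the TβRII flox/flox libraries, so no test is given for them either. Icam2, Icam4, Havcr2, Timd2 and Sox10 did not pass the filter.

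The genes whose log2 CPM were most like each marker over the 12 libraries are given as a description, since all share the same 4 groups. Each marker was compared with 12272 other protein-coding genes of at least 10 counts on average, before normalization. Lcn2 was most like Rragd (Pearson r = 0.995), Smox (0.995) and Fignl2 (0.995), Clu most like P2rx4 (0.991), Patj (0.989) and Lonp1 (0.988), and Prom1 most like Chn2 (0.998), Plcg2 (0.998) and Gstm2 (0.998). Icam1 was most like Ptk7 (0.994), Cyp1b1 (0.988) and Bri3bp (0.988), and Spp1 most like Fblim1 (0.977), Cxcl1 (0.976) and Taldo1 (0.974). Vcam1 was nearest to Nfib (0.983), Mr1 (0.983) and Nfia (0.973), Havcr1 to Rps26 (0.967), Nalcn (0.962) and Ntsr1 (0.959), and Cd24a to Mrpl28 (0.980), Gpx3 (0.978) and Gm20538 (0.977). Sox9 had the least close neighbours, Mapre2 (0.947), Tbc1d5 (0.940) and Phyhipl (0.887). None of these neighbours was another of the 9 markers.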

How the data were processed

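RNA of PT cells was sequenced in 12 stranded mRNA libraries on a NovaSeq. The authors trimmed reads with fastp, aligned them to GRCm38.p6 with STAR and counted them with featureCounts on GENCODE M23; strand and multimapping settings are not given in the sources used here. They deposited whole-number counts of reads for each transcript, in which a read can be counted for several transcripts of a gene. Of 106332 transcripts, 104820 were matched to 25514 genes by Ensembl ID (GENCODE M39 names), and 1.22 to 1.28% of counts per library stayed unmatched. The transcript with the highest total stood for each gene.

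Genes were filtered with filterByExpr, normalized with TMM and tested with the quasi-likelihood test of edgeR 4.0.16 in R 4.3.3, with 1 mean per group over all 12 libraries and Benjamini-Hochberg adjustment over 12971 genes. A difference was called at an adjusted p under 0.05. Intervals are 95% intervals of the model. The code was tested on simulated data. A count of 0 was taken to allow up to 3 counts, which covers counting error only. Lower bounds of folds were taken against 3 normalized counts, which is slightly under 3 counts in the TβRII flox/flox libraries. Alternatives were DESeq2 1.42.0 and its size factors, 2 other filters, counts summed over transcripts, a replicate block, fits of the groups compared only, and leaving out each library.

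The markers and lists were chosen with earlier results on these data known. Named were all markers, at most 4 genes per list and comparison by absolute log2 fold change among those called with at least 10 counts on average, partners and relatives of the markers, and the 3 genes most correlated with each. Cxcl2, Nfkb1, Relb, Nfkbiz, Podxl and Kdr were named after their values were seen. Some results are not reported here.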

Additional observations from a re-analysis of the deposited data

Results flagged for a closer look

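For 3 of the 9 markers the effect of H2O2 differed between TβRII-/- and TβRII flox/flox cells by the interaction test of edgeR, adjusted over all 12971 genes. Of all genes tested, 10.2% had an interaction called in either direction. Sox9 fell with H2O2 in TβRII flox/flox and rose in TβRII-/- cells, with an interaction of 1.04 on the log2 scale (adjusted p = 0.00131). Icam1 rose less in TβRII-/- cells, with an interaction of −0.65 (adjusted p = 0.000605). Spp1 fell in TβRII flox/flox cells, while in TβRII-/- cells its change did not pass the test, and its interaction was 0.35 (adjusted p = 0.0181). The Sox9 and Icam1 interactions passed under all 18 alternatives, whereas that of Spp1 did not pass when any of 5 single libraries was left out.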

How the results depend on the processing

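Over 19 alternative settings, the counts of markers and of wider injury genes called stayed within 1.5 times their main values in all 140 cases. Of 591 marker values, 546 kept their direction and their side of the threshold, 21 no longer passed and 5 passed that had not, and the last 2 kinds concern Lcn2 and Icam1 after H2O2, Sox9 after H2O2 in TβRII-/- cells and between treated genotypes, and the interactions of Spp1, Clu and Vcam1. The other 19 values changed sign, all of them of differences that passed neither in the fit reported nor in the alternative. The interaction of Havcr1 was −0.0027 with the size factors of DESeq2, −0.0019 with its test and −0.049 with summed counts, and that of Cd24a 0.0052 without a filter. Leaving out single libraries gave −0.0914 to 0.2194 and −0.05 to 0.13 for Havcr1 between untreated and between treated genotypes, and interactions of −0.21 to 0.12 for Havcr1, −0.28 to 0.42 for Lcn2 and −0.0812 to 0.0301 for Cd24a. Prom1 cannot be tested with at least 10 counts asked in every library, since its TβRII flox/flox libraries hold at most 2. Replicate numbers did not pair the libraries, as none of 18 pairs with the same number had a correlation of deviations over 0.1 (range −0.10 to 0.06, median −0.01), and 1 of 12 libraries was most like its own number. With the number as a replicate block, 8, 7, 7, 8 and 3 markers were called, the same counts as without it. The order is untreated genotypes, treated genotypes, H2O2 in TβRII flox/flox cells, H2O2 in TβRII-/- cells and the interaction. Of the wider genes, 49, 50, 38, 44 and 16 were called with the block. In the fit without it, 64.7%, 66.4%, 41.6%, 39.6% and 10.2% of all genes tested were called. Lcn2 in TβRII flox/flox cells, at 5 to 15 counts per library, and Vcam1 in untreated TβRII-/- cells, from 19 counts up, are limited by depth.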

Other observations

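Genes of the epithelial and endothelial marker lists, named here after their values were seen, had the following levels. Epcam, an epithelial adhesion molecule, had 1 count in all in the 3 untreated TβRII flox/flox libraries and was at least 221-fold higher in untreated TβRII-/- cells. Cdh1 (E-cadherin) had 5 counts in all there and was at least 370.5-fold higher, against 3 normalized counts per library in both cases. Kdr, the main VEGF receptor, had a mean of 129 normalized counts in untreated and 21.6 in treated TβRII flox/flox cells. Its means in TβRII-/- cells were 507 untreated and 48.1 with H2O2.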
